A study of Mus musculus with 9 samples.

Results

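Adrenergic receptors and adenylyl cyclases carry the signal of noradrenaline and adrenaline into heart muscle. The 9 genes looked for were the receptors Adrb1, Adra1a, Adra1b and Adra2a, the cyclases Adcy4, Adcy5, Adcy6 and Adcy9, and the receptor kinase Adrbk1 (now Grk2). Every probe set annotated to one of these symbols and to no other gene was taken, which gave 11 probe sets of 5 genes out of 34945 probe sets of 18193 genes. Adra1b, Adcy4 and Adcy6 have 1 probe set each, and Adcy5 and Adcy9 have 4 each. The other 4 genes, Adrb1, Adra1a, Adra2a and Adrbk1, have no probe set named in the annotation used and are not analysed here, so the beta receptor side is represented only by the cyclases.

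The study profiled mouse heart tissue on Affymetrix arrays to compare atria that lack the nuclear receptor COUP-TFII (gene Nr2f2) in muscle with normal atria and ventricles. Mutant right atria carried Myh6-cre with COUP-TFIIflox/flox. Control ventricles and control right atria carried COUP-TFIIflox/flox without Cre. Each of the 3 groups held 3 arrays, 9 in all, of C57BL/6 mice aged 2 months. The Myh6 promoter drives Cre in cardiomyocytes, so other cells of the atrium keep the gene. All groups share the floxed alleles and no group carries Cre alone, so an effect of Cre itself and the loss of COUP-TFII cannot be told apart. The labels call the replicates biological, and whether an array held 1 animal or a pool is not given in the sources used here.

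Beta receptors couple to Gs and switch on adenylyl cyclase, which makes cyclic AMP and activates protein kinase A, and the kinase then speeds and strengthens the heartbeat through calcium channels, phospholamban and the contractile filaments. Alpha receptors of the first class couple instead to Gq and phospholipase C, and those of the second class to Gi, which inhibits cyclase. Receptor kinases and arrestins end the signal. Adcy5 and Adcy6 are the cyclases best known from heart muscle and are inhibited by calcium, Adcy9 is a membrane cyclase that forskolin stimulates poorly and that is held near potassium channels in heart muscle by an anchoring protein, and Adcy4 belongs to the class that G protein beta-gamma subunits activate.

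Among these genes Adcy9 set the mutant atria apart from control right atria, with all 4 of its probe sets higher, by 1.74-fold to 2.56-fold. Adcy4 was lower by 1.37-fold, and Adcy6 and the brightest probe set of Adcy5 did not pass the test. Adcy9 and Adra1b were highest in control ventricles, and Adcy4 and Adcy6 were lower there than in control right atria. The promoters of the pair of cyclases that moved in opposite directions in the mutant atria are shown first. They are RefSeq sequences on build GRCm38.p6, the 250 bases before the annotated start of each gene, 5′ to 3′ on the minus strand, and capitals mark the matches of a motif search described after them.

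Adcy9, chr16:4420499-4420748: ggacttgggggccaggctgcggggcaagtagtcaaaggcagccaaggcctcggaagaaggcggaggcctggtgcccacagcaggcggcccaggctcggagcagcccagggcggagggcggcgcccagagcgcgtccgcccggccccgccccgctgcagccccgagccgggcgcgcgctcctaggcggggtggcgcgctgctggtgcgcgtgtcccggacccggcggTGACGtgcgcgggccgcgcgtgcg
Adcy4, chr14:55784073-55784322: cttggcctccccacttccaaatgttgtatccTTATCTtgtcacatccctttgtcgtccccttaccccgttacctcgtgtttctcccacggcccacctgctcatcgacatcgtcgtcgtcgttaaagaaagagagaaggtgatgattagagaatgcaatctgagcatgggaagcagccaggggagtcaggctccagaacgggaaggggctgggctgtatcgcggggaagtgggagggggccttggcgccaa

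The search read both strands of these windows for AGGTCA, the nuclear receptor half-site, for TGACG and the full TGACGTCA of the cyclic AMP response element, for the GATA factor motif AGATAA and for the T-box motif GGTGTGA. TGACGTCA holds TGACG, so these motifs overlap. The Adcy9 window holds TGACG 24 bases before the start, a match found in 17.8% of 32851 promoter windows of the same length. The Adcy4 window holds TTATCT, the complement of AGATAA, 219 bases before the start, and 9.99% of windows hold that motif. Neither window holds AGGTCA (14% of windows), TGACGTCA (1.55%) or GGTGTGA (3.33%). Of the 5 genes, 4 have a window in the RefSeq table, and Adcy6 is named only. The windows of Adra1b and Adcy5 were searched too and held no match of any of these motifs. The matches describe letters in a window and were not tested as binding sites.

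The arrays were close in brightness, with medians of 80.9 to 83.4 intensity units. These were 82.2 to 83.4 in mutant atria, 80.9 to 81.8 in control ventricles and 82.0 to 83.4 in control right atria. Every ventricle median was thus below every atrial one. Of 6 probe sets of Nr2f2, 4 were lower in mutant than in control right atria, by -0.74 to -1.29 on the log2 scale. The threshold was an adjusted p under 0.05, at which 8.05% of all probe sets were lower. The tissue labels fitted the markers of atrial muscle, whose 7 genes summed to 68113 to 94744 in mutant atria, 6534 to 9798 in control ventricles and 133240 to 135688 in control right atria. Transcripts of other cells differed between the groups. The summed intensity of 10 hepatocyte genes was 649 to 801 in mutant atria, 399 to 429 in control ventricles and 3087 to 16625 in control right atria, and all 10 were lower in mutant than in control right atria. All 8 mesothelial markers were lower too, with sums of 2733 to 3182 in mutant atria, 965 to 1233 in control ventricles and 7830 to 9595 in control right atria. Of all genes, 8.99% were lower in mutant than in control right atria. Y-linked transcripts were high in 2 of 3 mutant atria, in 0 of 3 control ventricles and in 2 of 3 control right atria. Control atria were mixed. Both with high Y-linked signal also carried Xist, at 375 and 1927 intensity units, against 89 and 106 on the mutant arrays with high Y-linked signal. The other control atrium had a Y-linked sum of 133 with Xist at 6774, against Y-linked sums of 40 to 44 on the remaining mutant array and the ventricles. The log2 difference between 3' and 5' Gapdh probe sets, a sign of RNA quality, was 0.214 to 0.304 in mutant atria, 0.153 to 0.227 in control ventricles and 0.345 to 0.364 in control right atria. The part of RNA quality in the results was not tested. In whole tissue, fewer cells of a type and less RNA per cell cannot be told apart.

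Levels below are log2 intensities and differences are log2 differences ± SE, fitted with limma over the 9 arrays together, with Benjamini-Hochberg adjustment over all 34945 probe sets, where called means an adjusted p under 0.05. A mark for background was set at 5.81, the 95th percentile of 44 probe sets of olfactory receptor genes. Whether heart tissue uses any of these genes was not tested. Signals of different probe sets depend on their probes, so levels are compared only within a probe set. Of the 11 probe sets, 6 were called in mutant against control right atria, 5 higher and 1 lower. Of all probe sets 13.9% were called, 5.86% higher and 8.05% lower. The arrays of both groups did not overlap on 7 of the 11, as on 34.3% of all probe sets. Their median difference was 0.24, beside 0.02 over all probe sets. In control ventricles against control right atria, 9 of 11 were called, 6 higher and 3 lower, against a background of 47.2% (25.7% higher, 21.5% lower), and 9 did not overlap, as did 55.6% of all. In mutant atria against control ventricles, 8 of 11 were called, 2 higher and 6 lower, against 27.5% (13.4% higher, 14.1% lower), and 8 did not overlap, as did 43.3% of all. Of the calls in mutant against control atria, 4 come from the 4 probe sets of Adcy9, which measure 1 gene. With 1 probe set per gene, the one with the highest mean, 2 of 5 genes were called there, Adcy9 higher and Adcy4 lower, against 15.9% of genes called, 6.92% higher and 8.99% lower.

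**Figure D1:**
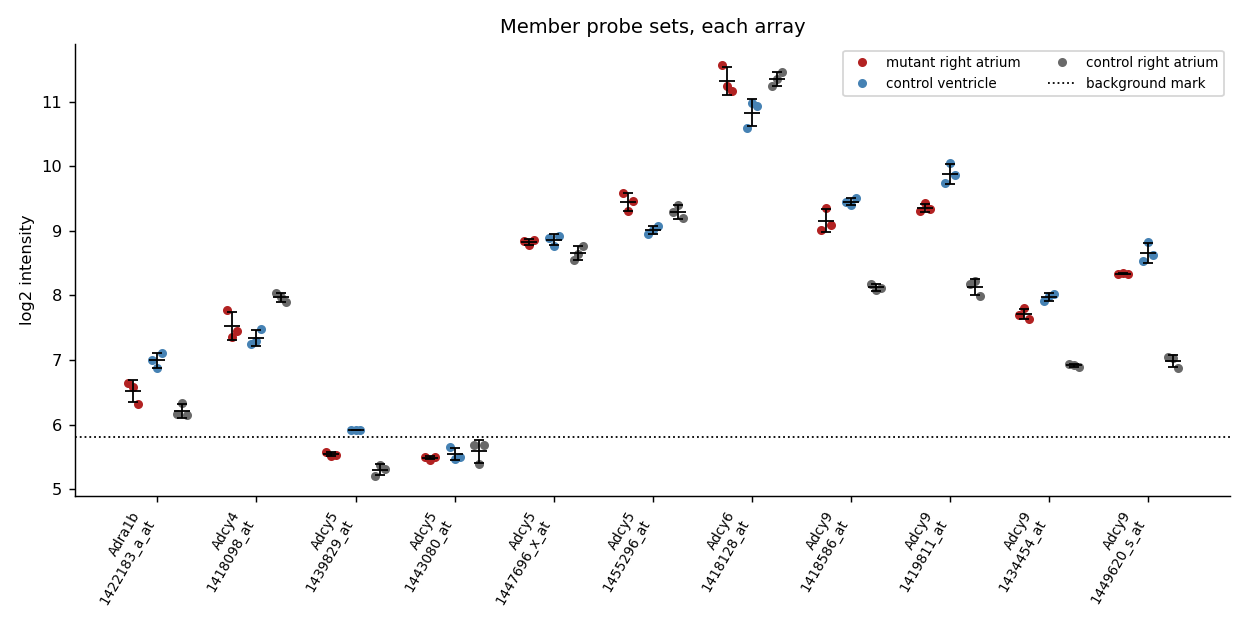
Log2 intensity (y axis) of the 11 probe sets of the 5 measured genes (x axis) on each of 9 arrays, 3 per group. Points are arrays, black bars are means ± SD, and the dotted line is the background mark at 5.81. The 4 Adcy9 probe sets are lowest in control right atria and highest in control ventricles.

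The receptor represented was Adra1b, which encodes the alpha receptor of subtype B that couples to Gq. Its probe set 1422183_a_at read 6.64, 6.59 and 6.33 in mutant atria, 7.00, 6.87 and 7.11 in control ventricles and 6.16, 6.34 and 6.15 in control right atria. Every ventricle was above every atrium, while 1 mutant atrium lay at the level of the highest control atrium. Adra1b was higher in control ventricles than in control right atria by 0.78 ± 0.10 (1.71-fold, adjusted p = 0.000214).

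The mutant atria lay between the control tissues. They were below control ventricles by a log2 difference of -0.48 ± 0.10 (adjusted p = 0.00644). Against control right atria the difference was 0.30 ± 0.10, with a 95% interval of 0.074 to 0.526 before adjustment, and missed the threshold after it (adjusted p = 0.0797). Without mutant replicate 3, the lowest of the mutant arrays, it was 0.40 and passed (adjusted p = 0.0385). The order of mean levels was control ventricle 6.99 ± 0.12, mutant atrium 6.52 ± 0.17 and control atrium 6.22 ± 0.11 (SD, n = 3 each), and the last 2 were not separated.

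Of the other 5 adrenergic receptor genes listed for the pathway, only Adra2c, an alpha receptor that couples to Gi, has a named probe set. Its brightest probe set, 1422335_at, averaged 5.94 in mutant atria, 5.95 in control ventricles and 5.84 in control right atria, close to the background mark, and was called in no comparison. Its other 3 probe sets, whose group means were all below the mark, were higher in ventricles than in control right atria by 0.25 to 0.41 and were not called otherwise. No statement on beta receptor transcripts can be made from these probe sets.

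Adcy9 gave the clearest pattern of the cyclases. Its probe set 1449620_s_at, of a type that can match more than 1 transcript, read 8.33, 8.35 and 8.34 in mutant atria, 8.53, 8.83 and 8.62 in control ventricles and 7.05, 7.03 and 6.87 in control right atria. The 3 groups did not overlap, and the mutant arrays lay nearer to the ventricles than to the control atria. The level was higher in mutant than in control right atria by 1.35 ± 0.09 (2.56-fold, adjusted p = 1.33e-05).

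Probe set 1419811_at, which shares a source sequence with 1449620_s_at, read 9.31, 9.43 and 9.34 in mutant atria, 9.74, 10.05 and 9.86 in control ventricles and 8.18, 8.23 and 8.00 in control right atria. It was 2.33-fold higher in mutant than in control right atria (1.22 ± 0.09, adjusted p = 4.59e-05). Probe set 1418586_at read 9.02, 9.35 and 9.10 in mutant atria, 9.45, 9.40 and 9.50 in control ventricles and 8.18, 8.08 and 8.11 in control right atria. Here too the groups stood apart, with mutant replicate 2 close to the lowest ventricle.

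That probe set was 2.04-fold higher in mutant than in control right atria (1.03 ± 0.09, adjusted p = 9.02e-05). The dimmest of the 4, 1434454_at, read 7.70, 7.80 and 7.64 in mutant atria, 7.92, 7.99 and 8.03 in control ventricles and 6.94, 6.92 and 6.89 in control right atria. Its mutant atria were 1.74-fold above control right atria (0.80 ± 0.07, adjusted p = 7.21e-05). The Adcy9 calls in mutant against control right atria held on all 4 probe sets when any of the 9 arrays was left out, with adjusted p of at most 0.000887.

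Between the control tissues Adcy9 was higher in ventricles on each probe set, by 1.06 ± 0.07 on 1434454_at up to 1.75 ± 0.09 on 1419811_at (2.09-fold to 3.36-fold), with adjusted p of at most 2.89e-06. The mutant atria stayed below the ventricles on all 4. That gap was -0.53 ± 0.09 on 1419811_at (adjusted p = 0.00258) and -0.26 to -0.32 on the other 3 (adjusted p of 0.016 to 0.0338). The smaller gaps rest on few arrays. The call on 1418586_at was lost in 5 of 9 runs that left out 1 array, that on 1449620_s_at in 4, and that on 1434454_at in 1, without mutant replicate 3.

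Marker genes of several cell types moved with Adcy9. Of all genes, 6.92% were higher and 8.99% lower in mutant than in control right atria. Of 6 ventricular muscle markers, 5 were higher in mutant than in control right atria and 1 was lower, and their summed intensity was 70464 to 78890 in mutant atria, 84181 to 87584 in control ventricles and 11632 to 13707 in control right atria. Of 10 smooth muscle and pericyte markers, 6 were higher and 1 lower, with sums of 17059 to 18615 in mutant atria, 25214 to 29738 in control ventricles and 10115 to 11413 in control right atria. The part of these cells in the level of Adcy9 was not tested.

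With the mean log2 level of hepatocyte genes as a covariate, the Adcy9 differences between mutant and control right atria were 0.86 to 1.61, and 1 of 4 probe sets, 1449620_s_at, passed the test (adjusted p = 0.0373). That covariate follows the groups, and the median SE over all probe sets was 0.239 with it and 0.0912 without it.

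By the rule that compares genes whose group means span at least 1 on the log2 scale, Adcy9 was the only member that qualified. The 3 genes whose level over the 9 arrays was most like that of 1419811_at, among 1574 candidates, were Asb15 (Pearson r = 0.995), Smyd2 (r = 0.995) and 2310002L09Rik (r = 0.989). Asb15 averaged 11.47 in mutant atria, 12.08 in control ventricles and 9.99 in control right atria. The arrays fall into 3 groups, so these values describe a shared order of the groups and carry no test.

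**Figure D2:**
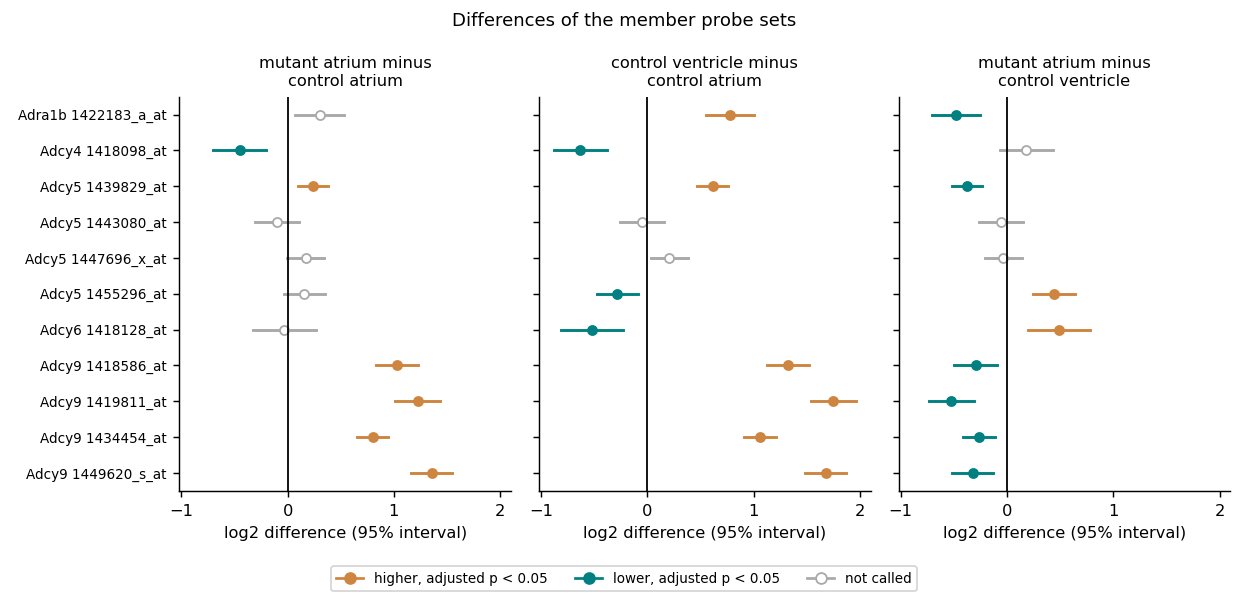
Log2 difference with its unadjusted 95% interval (x axis) of each of the 11 probe sets (y axis) in the 3 comparisons, with the first-named tissue minus the second. Filled points are called at adjusted p under 0.05, in light brown where higher and in teal where lower. All 4 Adcy9 probe sets lie above 0 against control atrium and below 0 in mutant atrium against control ventricle.

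Adcy4 took the opposite direction. Its only probe set, 1418098_at, read 7.77, 7.35 and 7.45 in mutant atria, 7.26, 7.29 and 7.49 in control ventricles and 8.04, 7.98 and 7.90 in control right atria. Each mutant atrium was below each control atrium, though mutant replicate 1 was close to the lowest of them, and the mutant atria overlapped the ventricles. The level was lower in mutant than in control right atria by a log2 difference of -0.45 ± 0.11 (1.37-fold, adjusted p = 0.0256).

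The Adcy4 call depended on single arrays. It was lost without mutant replicate 2 or 3, and without replicate 1 or 2 of the control atria, with differences of -0.36 to -0.45 and adjusted p of 0.0749 to 0.0922. Control ventricles were below control right atria by -0.63 ± 0.11 (1.55-fold, adjusted p = 0.00136), a call kept without any one array. Mutant atria and ventricles differed by 0.18 ± 0.11 (adjusted p = 0.259), with a 95% interval of -0.068 to 0.428, so a rise of 1.13-fold was measured but not separated from none.

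Adcy4 is known from endothelial cells, and endothelial markers were set beside it. Their summed intensity over 10 genes was 13342 to 16665 in mutant atria, 7999 to 8877 in control ventricles and 16413 to 18124 in control right atria. Only Tek, an angiopoietin receptor, was called in mutant against control right atria (-0.61, adjusted p = 0.0116), 1 of 10, lower. Of all genes, 8.99% were lower in that comparison and 6.92% higher. In control ventricles against control right atria 5 of the 10 were lower and 1 was higher. There 51.3% of all genes were called, 23.1% lower and 28.2% higher. The part of vessels in the level of Adcy4 was not tested. With the hepatocyte covariate its difference between mutant and control right atria was -0.23 (adjusted p = 0.911).

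Adcy6 separated the chambers but not the genotypes. Probe set 1418128_at read 11.57, 11.23 and 11.16 in mutant atria, 10.59, 10.97 and 10.92 in control ventricles and 11.25, 11.35 and 11.46 in control right atria. Mutant and control atria overlapped fully, and every ventricle was below every atrium. The difference between mutant and control right atria was -0.03 ± 0.13 (adjusted p = 0.904), with a 95% interval of -0.322 to 0.263, so a change of up to that size either way was not resolved.

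Ventricles were lower than control right atria by a log2 difference of -0.52 ± 0.13 (1.44-fold, adjusted p = 0.00909). Mutant atria were above ventricles by 0.49 ± 0.13 (1.41-fold, adjusted p = 0.0192). Without mutant replicate 1, which gave the highest mutant value, the second difference was 0.37 and not called (adjusted p = 0.0592), and likewise 0.37 without ventricle replicate 1 (adjusted p = 0.0627).

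The 4 probe sets of Adcy5 did not give the same answer and are shown one by one. The brightest, 1455296_at, read 9.59, 9.31 and 9.46 in mutant atria, 8.94, 9.02 and 9.07 in control ventricles and 9.29, 9.40 and 9.20 in control right atria. Ventricles were lowest on it, and the mutant atria overlapped the control atria. Control ventricles were below control right atria by -0.28 ± 0.09 (adjusted p = 0.0247), and mutant atria were above ventricles by 0.44 ± 0.09 (adjusted p = 0.00463).

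The chamber call on 1455296_at was lost without control atrium replicate 1 or 2 or ventricle replicate 1 or 2 (adjusted p of 0.0544 to 0.0893). It was also lost after quantile normalisation (-0.18, adjusted p = 0.103) and after median centring (-0.21, adjusted p = 0.0682). The call in mutant atria against ventricles was kept without any one array. Mutant and control right atria differed by 0.16 ± 0.09 on this probe set (adjusted p = 0.266).

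On 1447696_x_at, of a type that can bind related transcripts, the levels were 8.84, 8.78 and 8.86 in mutant atria, 8.90, 8.76 and 8.92 in control ventricles and 8.55, 8.65 and 8.77 in control right atria. Here control right atria were lowest on average, and the highest of them was above the lowest ventricle. No comparison passed the test. The difference was 0.17 ± 0.08 in mutant against control right atria (adjusted p = 0.178) and 0.21 ± 0.08 in control ventricles against control right atria (adjusted p = 0.0519), and the second passed under quantile normalisation (0.32, adjusted p = 0.012).

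Probe set 1439829_at was dim, with 5.58, 5.52 and 5.53 in mutant atria, 5.92, 5.91 and 5.92 in control ventricles and 5.21, 5.38 and 5.32 in control right atria. The groups did not overlap, but only the 3 ventricles were above the background mark. It was higher in control ventricles than in control right atria by 0.62 ± 0.06 (adjusted p = 5.29e-05). It was also called in mutant against control right atria (0.24 ± 0.06, adjusted p = 0.0367), a call lost in 5 of 9 runs that left out 1 array and with all mutant values below the mark.

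The remaining probe set, 1443080_at, read 5.50, 5.46 and 5.50 in mutant atria, 5.65, 5.47 and 5.50 in control ventricles and 5.69, 5.39 and 5.69 in control right atria. None of the 9 values reached the background mark, the groups overlapped, and no comparison was called. This probe set gives no usable level of Adcy5 in these tissues.

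The probe sets lay farthest apart where ventricles were compared. In control ventricles against control right atria, 1439829_at differed by 0.62 and 1455296_at by -0.28, which are 0.90 apart. The exact permutation test of this gap within arrays, 2-sided over 3 against 3 arrays, gave p = 0.1, the smallest it can give, and 0.15 after adjustment over the 6 pairs of probe sets. The control atria of that pair are below the mark on 1439829_at. Of the 2 probe sets above the mark on every array, 1447696_x_at differed by 0.21 and 1455296_at by -0.28 in the same comparison, 0.49 apart (exact p = 0.1, adjusted 0.15). A test of this size cannot pass the threshold, so the gaps stand as measured values. In mutant atria against ventricles the pair of 1439829_at and 1455296_at was -0.82 apart (exact p = 0.1, adjusted 0.12), and that of 1447696_x_at and 1455296_at -0.47 apart (exact p = 0.1, adjusted 0.12). In mutant against control right atria the 4 probe sets spread over 0.34, between -0.10 and 0.24, and the 2 above the mark were 0.014 apart (exact p = 0.9). Averaged over its 4 probe sets, Adcy5 differed by 0.12 between control ventricles and control right atria (adjusted p = 0.0793) and by -0.006 between mutant atria and ventricles (adjusted p = 0.942). That average holds the 2 dim probe sets, whose atrial values are below the background mark, and is set partly by background.

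**Figure D3:**
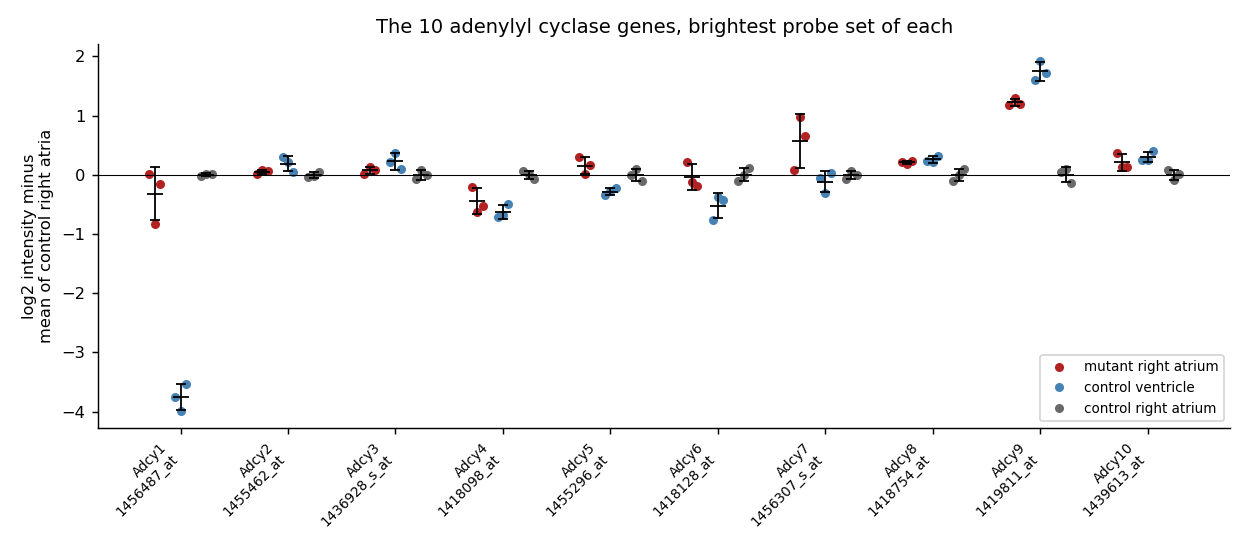
Log2 intensity of each array minus the mean of the control right atria of the same probe set (y axis) for the 10 adenylyl cyclase genes, each by its brightest probe set (x axis). Points are arrays and black bars are means ± SD of 3 arrays. Adcy1 in ventricles and Adcy9 in mutant atria and ventricles lie farthest from 0.

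The other 6 cyclase genes were all measured. By their brightest probe sets none was called in mutant against control right atria (limma), where 15.9% of all genes were called. Adcy7, Adcy8 and Adcy10 had an unadjusted p under 0.05 there, a looser threshold whose share over all genes was not counted. All values of Adcy8 and Adcy10 were below the background mark. In control ventricles against control right atria 3 of the 6 were higher and 1 lower, where 51.3% of all genes were called, 28.2% higher and 23.1% lower. Adcy1, a cyclase that calcium and calmodulin stimulate, was the one that was lower. Its probe set 1456487_at read 10.42, 9.58 and 10.25 in mutant atria, 6.65, 6.42 and 6.87 in control ventricles and 10.37, 10.42 and 10.41 in control right atria.

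Adcy1 stood far lower in every ventricle than in any atrium, by -3.76 ± 0.19 against control right atria (13.5-fold, adjusted p = 5.22e-07). In mutant against control right atria it differed by -0.32 ± 0.19 (adjusted p = 0.301). Mutant replicate 2 was the lowest atrium, at 9.58, and mutant replicate 3, at 10.25, was also below every control atrium. A second probe set of Adcy1, 1445359_at, was lower in ventricles than in control right atria by -0.72 ± 0.13 (adjusted p = 0.00164). Mutant atria were above ventricles by 3.44 ± 0.19 on 1456487_at (adjusted p = 2.7e-06).

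Adcy7, a cyclase common in blood cells, read 8.65, 9.54 and 9.23 in mutant atria, 8.51, 8.26 and 8.60 in control ventricles and 8.51, 8.63 and 8.57 in control right atria on 1456307_s_at. The mutant values were the highest and the most spread. They differed from control right atria by 0.57 ± 0.19 (adjusted p = 0.073) and were above ventricles by 0.69 ± 0.19 (adjusted p = 0.0222). That call on Adcy7 was lost without mutant replicate 2 or 3 or ventricle replicate 2 (adjusted p of 0.0632 to 0.0765) and with the Y-linked covariate (0.32, adjusted p = 0.213). Of the other probe sets of Adcy7, 1450065_at was also called in mutant atria against ventricles and 1420970_at was not. Mutant atria were above ventricles by 0.84 ± 0.23 on 1450065_at (adjusted p = 0.0209), though the arrays overlapped. On 1420970_at, close to the background mark, the difference was 0.09 ± 0.15 (adjusted p = 0.7). Neither was called in mutant against control right atria. The summed intensity of 6 macrophage markers was 13162, 17450 and 15445 on the same mutant arrays, 5882 to 8982 in ventricles and 11766 to 11904 in control right atria. Of these, 4 of 6 were higher in mutant than in control right atria, as were 6.92% of all genes. Of 4 blood markers, 0 were called there. Their sums were 1070 to 1454 in mutant atria, 547 to 1128 in ventricles and 927 to 1094 in control right atria. The part of these cells in the level of Adcy7 was not tested.

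Adcy3, a cyclase best known from olfactory neurons, was higher in ventricles than in control right atria on 1436928_s_at (0.23 ± 0.08, adjusted p = 0.0458). This call was lost in 7 of 9 runs that left out 1 array. The other probe sets of Adcy3 disagreed in this comparison. Calls were made on 1421959_s_at (0.41, adjusted p = 0.0062) and 1436929_x_at (0.28, adjusted p = 0.0432), but not on 1421960_at (-0.01, adjusted p = 0.941). Adcy8 and Adcy10, the soluble cyclase that bicarbonate activates, were also called there, at 0.26 ± 0.07 and 0.30 ± 0.09, but all their values were below the background mark and neither was called after quantile normalisation. Adcy2 was called in no comparison and averaged 6.73 in mutant atria, 6.87 in control ventricles and 6.68 in control right atria.

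Genes that act beside and below these members were read from lists of G proteins, receptor kinases and arrestins, protein kinase A with its inhibitors and anchors, its cardiac substrates, the Gq arm and catecholamine handling, each gene by its brightest probe set. With the other receptors and cyclases these lists hold 107 measured genes. In mutant against control right atria 14 were higher and 10 lower, where 6.92% of all genes were higher and 8.99% lower. In control ventricles against control right atria 32 were higher and 41 lower, where 28.2% of all genes were higher and 23.1% lower. With a minimum of 1.5-fold, 7 were higher and 4 lower in mutant atria (2.29% and 3.04% of all genes), and 16 were higher and 21 lower in ventricles (7.07% and 10.3%). These shares of all genes are the background for each list below.

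**Figure D4:**
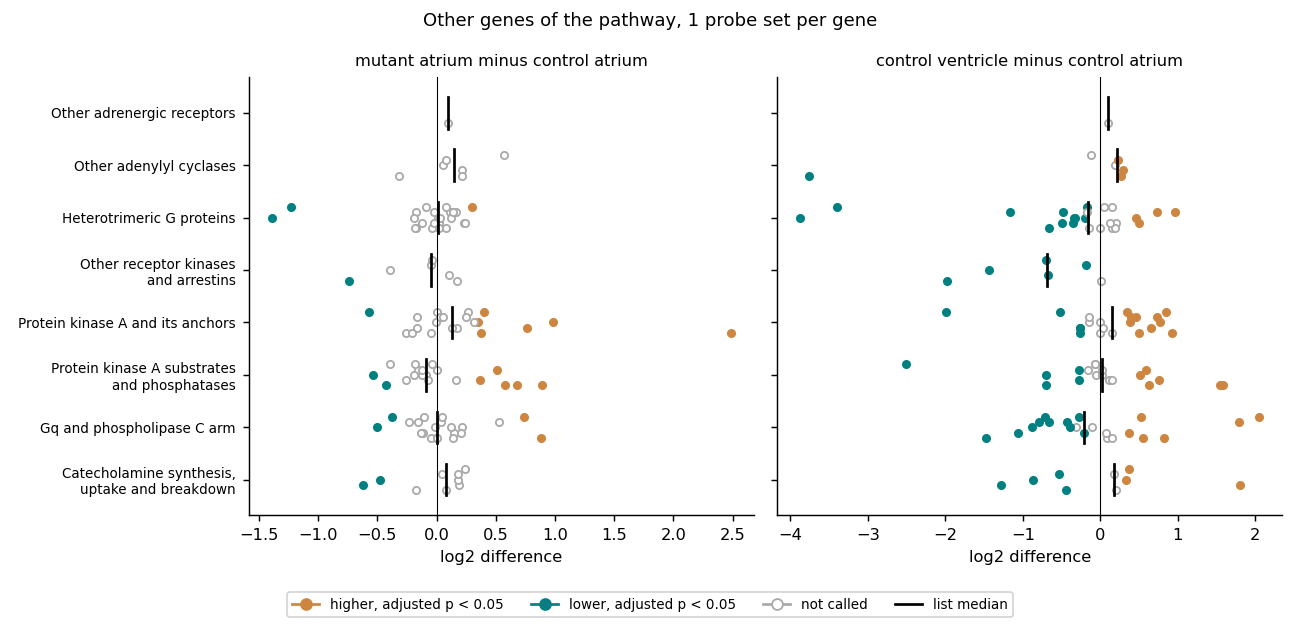
Log2 difference (x axis) of each gene of 8 pathway lists (rows) in mutant against control atrium (left) and control ventricle against control atrium (right). Filled points are called at adjusted p under 0.05 and black bars are list medians. Pkib lies farthest right on the left side, at 2.48, and Gnao1 farthest left on both sides.

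Among 24 measured G protein genes, 1 was higher and 2 were lower in mutant than in control right atria, with a list median of 0.02 beside 0.03 over all genes. Gnao1, the alpha subunit of Go, was lower by -1.39 ± 0.24 (adjusted p = 0.00443) and in ventricles by -3.87 ± 0.24 (adjusted p = 1.6e-06). Gng2, a gamma subunit, was lower by -1.23 ± 0.24 in mutant atria (adjusted p = 0.00943) and by -3.39 ± 0.24 in ventricles (adjusted p = 4.04e-06), both against control right atria. Gnai2, an inhibitory alpha subunit, was higher in mutant than in control right atria by 0.30 ± 0.06 (adjusted p = 0.0143, but 0.0623 without mutant replicate 2). In ventricles 4 of the 24 were higher and 11 lower than in control right atria.

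Of 6 other receptor kinases and arrestins, 1 was lower in mutant than in control right atria. It was Arrb1, a beta-arrestin that uncouples receptors, at -0.74 ± 0.11 (adjusted p = 0.00229). In ventricles 5 of 6 were lower than in control right atria, with a list median of -0.69 beside 0.07 over all genes, Arrb1 by -1.98 ± 0.11 (adjusted p = 9.12e-07) and the receptor kinase Grk3 by -1.43 ± 0.17 (adjusted p = 0.000127). For Grk3 the mutant atria differed from control right atria by -0.39 ± 0.17 (adjusted p = 0.165).

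Protein kinase A and its anchors had 6 of 21 genes higher and 1 lower in mutant than in control right atria, where 6.92% of all genes were higher and 8.99% lower. Pkib, an inhibitor peptide of the kinase, read 7.18, 7.19 and 6.86 in mutant atria, 5.42, 5.13 and 4.72 in control ventricles and 4.83, 4.59 and 4.36 in control right atria. Only the mutant atria were above the background mark on it, and they stood 2.48 ± 0.18 above control right atria (adjusted p = 2.76e-05) and 1.98 ± 0.18 above ventricles (adjusted p = 3.79e-05). Since both control tissues were under the mark, the size of the Pkib difference is set partly by background.

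Of the 6 higher genes 2, Pkib and Pkig, encode inhibitors of the kinase. Pkig was higher by 0.76 ± 0.12 (adjusted p = 0.00321) and Popdc2, a membrane protein of the Popeye family that binds cyclic AMP, by 0.98 ± 0.07 (adjusted p = 3.84e-05). The other 3 were the anchors Akap1 and Akap11 and the catalytic subunit gene Prkaca, at 0.35 to 0.40. Prkar2b, a regulatory subunit, was lower by -0.57 ± 0.17 (adjusted p = 0.0495, lost in 8 of 9 runs that left out 1 array), and in ventricles by -1.99 ± 0.17 (adjusted p = 1.19e-05). Between ventricles and control right atria, 10 of the 21 were higher and 5 lower, Akap1 by 0.93 ± 0.07 (adjusted p = 7.93e-06).

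Of 19 cardiac substrates and phosphatases, 5 were higher and 2 lower in mutant than in control right atria (6.92% and 8.99% of all genes). Cacna1c, the pore of the L-type calcium channel, was higher by 0.89 ± 0.13 (adjusted p = 0.00178). Hspb6, a small heat shock protein phosphorylated by the kinase, was higher by 0.68 ± 0.17 (adjusted p = 0.0263, lost without mutant replicate 2 or 3 or control atrium replicate 1), and Pln, which encodes the calcium pump inhibitor phospholamban, by 0.58 ± 0.06 (adjusted p = 0.000226).

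Pln lay near the top of the array range, at 14.5 in mutant atria and 13.9 in control right atria. Creb1, the transcription factor that binds cyclic AMP response elements, was lower by -0.54 ± 0.07 on its brightest probe set (adjusted p = 0.000809), but the mean of its probe sets gave -0.13 and no call. In ventricles 6 of the 19 were higher and 5 lower than in control right atria. Hspb6 was higher there by 1.58 ± 0.17 (adjusted p = 6.14e-05), Cacna1c by 1.54 ± 0.13 (adjusted p = 1.06e-05) and Pln by 0.63 ± 0.06 (adjusted p = 2.33e-05). Phkg1, a subunit of phosphorylase kinase, was lower by -2.51 ± 0.13 (adjusted p = 6.03e-07).

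In the Gq arm, to which Adra1b couples, 2 of 21 genes were higher and 2 lower in mutant than in control right atria (6.92% and 8.99% of all genes). Plcb1, a phospholipase C, was higher by 0.89 ± 0.15 (adjusted p = 0.00411), and Rgs5, a regulator of G protein signalling that is also one of the pericyte markers above, by 0.74 ± 0.14 (adjusted p = 0.00815). Dgkz, a diacylglycerol kinase, was lower by -0.51 ± 0.07 (adjusted p = 0.0018), and the calcium release channel gene Itpr3 by -0.38 ± 0.11 (adjusted p = 0.0491, lost in 8 of 9 runs that left out 1 array). In ventricles 6 of the 21 were higher than in control right atria and 10 lower, with Rgs5 at 2.05 ± 0.14 (adjusted p = 3.28e-06) and Rgs4 at 1.78 ± 0.19 (adjusted p = 6.48e-05).

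Of 9 catecholamine genes, 2 were lower and 0 higher in mutant than in control right atria (8.99% and 6.92% of all genes). Maoa, a monoamine oxidase that breaks down noradrenaline, was lower by -0.48 ± 0.09 (adjusted p = 0.0081). Slc18a2, the vesicular monoamine transporter, was lower by -0.63 ± 0.16 (adjusted p = 0.0291, lost in 4 of 9 runs that left out 1 array), with 8 of 9 values under the background mark. Of 10 markers of sympathetic neurons and Schwann cells, 1 was higher in mutant than in control right atria. By group mean, 7 of them were above the mark in mutant atria, 8 in control ventricles and 7 in control right atria. Only Snap25 and Th, the defining enzyme of catecholamine synthesis, averaged under the mark in every group. In ventricles 3 of the 9 catecholamine genes were higher and 4 lower than in control right atria. Maoa was lower there by -0.87 ± 0.09 (adjusted p = 5.67e-05) and Slc18a2 by -1.28 ± 0.16 (adjusted p = 0.000163). Ddc, which makes dopamine, was higher by 1.80 ± 0.23 (adjusted p = 0.000212). All atrial values of Ddc and all ventricle values of Slc18a2 were below the background mark, so the sizes of these differences are set partly by background.

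For the members, mutant atria and ventricles differed in both directions. Adra1b, all 4 probe sets of Adcy9 and 1439829_at of Adcy5 were lower in mutant atria than in ventricles, and Adcy6 and 1455296_at of Adcy5 were higher. None of these 8 differences reached 1.5-fold. All ventricle arrays were low in Y-linked transcripts while the atria were mixed, and with the Y-linked level as a covariate 5 of the 11 probe sets were called in this comparison, 3 higher and 2 lower. Adra1b (-0.42, adjusted p = 0.0563) and 3 probe sets of Adcy9 (adjusted p of 0.0562 to 0.105) were then no longer called, 1419811_at of Adcy9 and 1439829_at of Adcy5 stayed lower, and Adcy4 was called higher (0.38, adjusted p = 0.0414). With that covariate 6 were called in mutant against control right atria and 9 in control ventricles against control right atria. The comparisons share arrays, since the control right atria enter both atrial contrasts, so the members' values are given side by side and no overlap is read as a result.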

How the data were processed

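Per the labels, RNA of 9 tissue samples was amplified, biotin labelled and hybridised to Affymetrix 3' arrays. The authors deposited one intensity per probe set and array, made with RMA per the submitters' processing notes; the version is not given in the sources used here. The values are linear, so their log2 was taken, with no further normalisation. Of 45101 probe sets, 64 controls, 932 of several genes and 9160 without a gene name in the platform annotation were left out. All 9 arrays entered a limma 3.58.1 model (R 4.3.3; 6 residual and 3.83 prior degrees of freedom), tested 2-sided with adjustment over all probe sets. The members, lists and tests were chosen with earlier results of these data known. Per pathway list, the text names up to 4 genes called in mutant against control atrium, by size. It also names up to 2 called in ventricle against control atrium, by size, and all other receptors and cyclases. Prkaca and Akap11, and the markers Tek, Snap25 and Th, were named after their values were seen. The script was tested on simulated data. The number of arrays limits the precision. Alternatives were other scalings, filters, variance models, covariates, a replicate block and leaving out each array. Promoters are RefSeq's. Figures were made in Python 3.11.15 with pandas 2.3.3 and matplotlib 3.10.9.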

Additional observations from a re-analysis of the deposited data

How the results depend on the processing

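Counts of called members moved under several settings. The settings per gene count 5 genes in place of 11 probe sets, so their counts are not on the same base. In mutant against control right atria (6 of 11) 2 of 5 were called with 1 probe set per gene or the mean per gene, 1 with the hepatocyte covariate, and 4 to 6 with each array left out. In control ventricles against control right atria (9 of 11) the counts were 5 and 4 of 5, 4, and 8 to 10. In mutant atria against ventricles (8 of 11) they were 4 and 3 of 5, 5 with the Y-linked covariate, 5 to 8 with each array left out (5 without mutant replicate 1 or 3), 4 at adjusted p 0.01 and 0 at 1.5-fold. The pathway lists (24 and 73 of 107 genes called) gave 1 and 6 with the hepatocyte covariate, 11 and 37 at 1.5-fold, and 18 to 29 and 62 to 67 with each array left out. The gap between Adcy5 probe sets was 0.244 to 0.479, 0.855 to 0.952 and 0.766 to 0.875 with each array left out, in the same order of comparisons. Deviations from the group means correlated weakly between arrays of the same replicate number (-0.0957 to 0.111 over 9 pairs). Such values cannot show whether these samples were paired. The replicate block gave 5, 9 and 7 called members, and 24 and 66 pathway genes. The hepatocyte covariate follows the groups, and the cause of the lost calls was not tested.

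Signs turned mostly where no call was made. Adcy6 in mutant against control right atria became 0.011 after quantile normalisation and ran from -0.16 to 0.051 with each array left out. Adcy5 on 1443080_at in ventricles against control right atria became 0.022 with median centring and 0.013 with array weights and ran from -0.15 to 0.0052 with each array left out. In mutant atria against ventricles it became 0.0094 with the Y-linked covariate and ran from -0.087 to 0.0013. On 1447696_x_at it became -0.15 and -0.14 with the hepatocyte covariate, in mutant atria and ventricles against control right atria. On 1455296_at, where calls were made, the mean of all Adcy5 probe sets gave 0.12 and -0.0061. With the hepatocyte covariate Adra2c became -0.49 and -0.51, Adcy8 -0.070 and -0.036, Adcy2 -0.076 and Slc18a2 0.42. Adra2c ran from -0.034 to 0.19 in mutant atria and from -0.025 to 0.20 in ventricles with each array left out, both against control right atria. Adcy7 in ventricles became 0.014 after quantile normalisation and 0.29 with the Y-linked covariate. The causes were not tested.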
